A study of Mus musculus with 16 samples.

Results

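The genes described here belong by name to families of the splicing machinery and are called splicing genes for short: the Sm and U1 and U2 proteins of the small nuclear ribonucleoproteins (names beginning with Snrp), the SF3A and SF3B complexes (Sf3a and Sf3b), the Sm-like proteins (Lsm), the serine and arginine rich splicing factors (Srsf) and the heterogeneous nuclear ribonucleoproteins (Hnrnp). They were chosen by name among the protein-coding genes of the deposited table, which gave 65 of 55385 genes: 12 Snrp, 9 Sf3, 13 Lsm, 11 Srsf and 20 Hnrnp genes. The name rule also takes in Lsm genes with other known roles, Lsm10 and Lsm11 in histone pre-mRNA processing and Lsm1, Lsm14a and Lsm14b in mRNA decay or control of translation. Of these, 63 reached 1 FPKM (a level per length of gene and per sequenced fragment of the library) in at least 4 libraries and were tested, and Lsm14b and Srsf12 did not.

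RNA was sequenced in bulk from EGFP-positive retinal cells sorted from the Iba1-EGFP strain, whose EGFP is driven by the promoter of the microglia and macrophage gene Iba1 (Aif1). The 4 groups of 4 libraries were day 0 without treatment, in mice 15 weeks old, and days 2, 4 and 7 after optic nerve crush, an injury to the axons of retinal ganglion cells, in mice 13, 13 and 16 weeks old. Every group carried the same reporter strain. Ages differed by day, so day and age cannot be told apart except between days 4 and 2. The labels do not say whether libraries of a day came from separate animals, so the spread behind each p-value is that of these libraries and may be technical. The first 4 digits of a code in the sample titles split every day into replicates 1 and 2 and replicates 3 and 4. These are called code groups 1 and 2 here and entered the main fit as a covariate. The full code differed between days within a code group, which the main fit does not adjust for. In code group 1 days 0 and 4 shared a code, as did days 2 and 7. In code group 2 days 0 and 2 shared a code, as did days 4 and 7. Titles of day 2 replicates 3 and 4 carry the prefix F and all others M. The labels explain neither the code nor the prefix.

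The spliceosome removes introns from pre-mRNA. Its small nuclear ribonucleoproteins each hold a short RNA wrapped by a ring of Sm proteins (SNRPB, SNRPD1, SNRPD2, SNRPD3, SNRPE, SNRPF and SNRPG) or, in U6, by a ring of LSM2 to LSM8. U1 marks the start of an intron, U2 with SF3A and SF3B takes the branch point, and SR and hnRNP proteins bind exons and introns and help set which sites are used.

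Promoter sequence is given for 4 called genes whose window holds a CCAAT box, as the 250 bases before the start of transcription in RefSeq (GRCm38.p6), written 5′ to 3′ on the strand of the gene. The windows of the called genes Snrpa1, Snrpe and Srsf9 hold no CCAAT box and are not printed. That of Snrpd3, also called, holds a CCAAT box and is not printed either. Capitals mark a CCAAT box (CCAAT, or ATTGG on the other strand), and the annotation behind the deposited table can begin a gene at another base. The first 3 genes were higher at day 4 than at day 0, and the fourth was lower at day 7 than at day 4.
Snrpf (chr10:93589659-93589908, minus strand): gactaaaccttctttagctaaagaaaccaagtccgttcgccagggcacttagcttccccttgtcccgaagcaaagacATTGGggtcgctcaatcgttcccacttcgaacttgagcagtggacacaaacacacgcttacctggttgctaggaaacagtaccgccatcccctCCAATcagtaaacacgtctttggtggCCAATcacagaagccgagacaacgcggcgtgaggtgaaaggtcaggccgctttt
Srsf2 (chr11:116853095-116853344, minus strand): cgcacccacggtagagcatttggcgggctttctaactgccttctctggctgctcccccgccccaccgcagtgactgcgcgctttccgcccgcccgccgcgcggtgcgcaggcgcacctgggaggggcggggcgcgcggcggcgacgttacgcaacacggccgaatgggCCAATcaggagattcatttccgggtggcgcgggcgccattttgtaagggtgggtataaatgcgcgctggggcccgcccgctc
Srsf3 (chr17:29032410-29032659, plus strand): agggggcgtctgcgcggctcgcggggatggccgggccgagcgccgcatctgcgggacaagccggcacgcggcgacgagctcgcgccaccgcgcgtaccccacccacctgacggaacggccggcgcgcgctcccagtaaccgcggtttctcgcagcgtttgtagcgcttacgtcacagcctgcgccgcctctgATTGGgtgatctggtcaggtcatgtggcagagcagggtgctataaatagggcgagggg
Hnrnpab (chr11:51606882-51607131, minus strand): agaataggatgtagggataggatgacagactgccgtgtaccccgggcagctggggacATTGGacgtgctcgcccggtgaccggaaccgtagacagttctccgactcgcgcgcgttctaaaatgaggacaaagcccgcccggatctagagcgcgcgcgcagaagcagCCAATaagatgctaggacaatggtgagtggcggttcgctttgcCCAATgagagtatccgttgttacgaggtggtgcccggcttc
Of the 75 RefSeq windows of the splicing genes, which covered 56 of the 65, 41.3% held a CCAAT box on either strand, against 33.9% of all 32851 mouse windows of the same length. The ETS motif CCGGAAG stood in 26.7% of the 75 windows and in 6.91% of all windows, and the E-box CACGTG in 6.67% and 6.02%. For the NRF1 motif the shares were 1.33% and 0.782%, for YY1 (AAGATGGCG) 1.33% and 0.606%, and for a TATA box (TATAAA, which is not capitalised here) 8% and 12.4%. Of the 9 genes called at day 4 (below), 7 had a window. The CCAAT box was found in the windows of Snrpd3, Snrpf, Srsf2 and Srsf3, the TATA box in those of Srsf2 and Srsf3, and the ETS motif in none of the 7. A match of letters is a description and not a bound site.

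The libraries held an estimated 8647276 to 15708302 reads assigned to genes, and 9315 to 16522 genes reached 1 FPKM. Each of the 14 microglia marker genes was above 1 FPKM in every library, with Aif1 between 130 and 960.9 FPKM and Tmem119 between 42.5 and 652.8 FPKM. Genes of other retinal cells were present as well, and rod genes summed to between 1636 and 10670 FPKM over all libraries. In bulk RNA, fewer cells of a type and less RNA per cell cannot be told apart.

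Splicing genes took the largest share of reads at day 4. All 65 together took 0.743 ± 0.0919% of reads at day 0, 0.768 ± 0.110% at day 2, then 1.18 ± 0.0883% at day 4 and 0.677 ± 0.0778% at day 7 (mean ± SD, n = 4 each). As deposited, the day 4 libraries lay between 1.07% and 1.29% and did not overlap those of any other day, while days 0, 2 and 7 overlapped in this share. Scaling by the median of ratios (below) divides day 4 levels by 1.27 to 1.39 and day 0 levels by 0.901 to 1.01. It thus lowers day 4 relative to day 0, and the shares and summed levels given here were not rescaled. The summed level of the Snrp family was 754 ± 34.9 FPKM at day 4 and 341 ± 63.2 FPKM at day 0, a ratio of 2.21. The ratio was 2.2 for Lsm, 1.98 for Srsf, 1.53 for Hnrnp and 1.39 for Sf3, and in each family the lowest day 4 library was above the highest at day 0 as deposited. With median-of-ratios scaling the median log2 changes at day 4 against day 0 were 0.69 for Snrp and 0.51 for Lsm. They were 0.16 for Sf3, 0.09 for Srsf and -0.11 for Hnrnp, so the size of the rise depends on the scale. At day 7 the sums of Snrp, Sf3, Srsf and Hnrnp lay below all 4 day 4 libraries, and the Lsm sum, at 276 ± 79.8 FPKM, overlapped day 4 (358 ± 38.2 FPKM) and was above every library of day 0 (163 ± 28.2 FPKM). The Lsm sum was already above day 0 at day 2, at 213.7 to 287.6 FPKM against 126.6 to 187.2 FPKM at day 0, a ratio of 1.58.

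**Figure D1:**
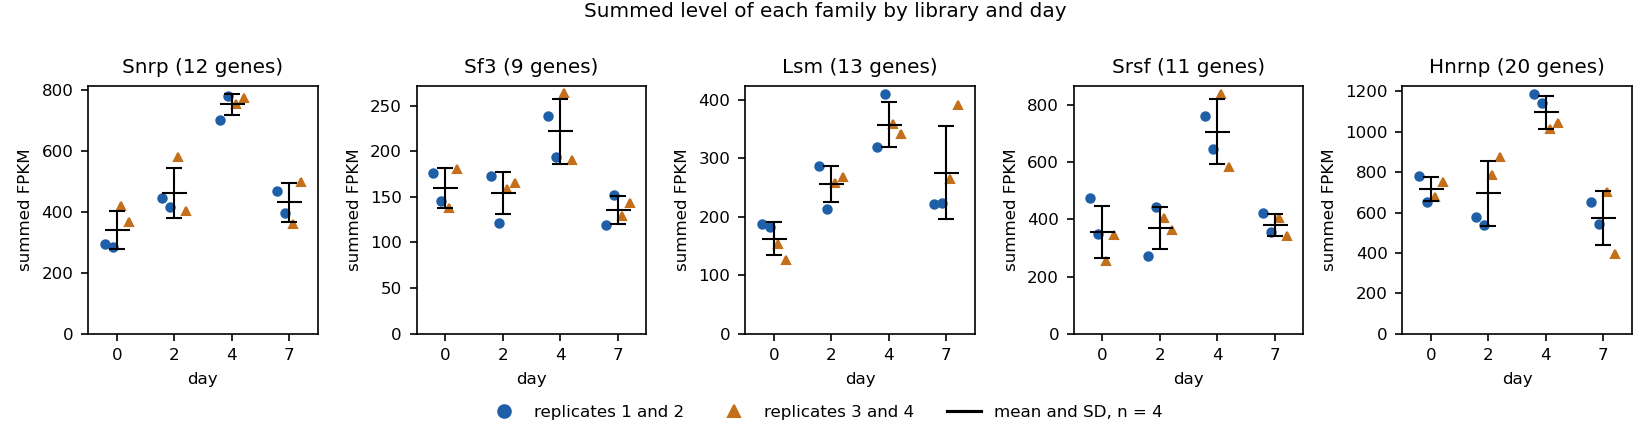
Summed FPKM of each splicing gene family (vertical axis) in each library by day (horizontal axis), with the mean and SD of 4 libraries. In all 5 families the day 4 libraries lie above those of day 0 on the deposited scale, from 704 to 782 FPKM for Snrp at day 4 against 284 to 418 FPKM at day 0.

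Gene by gene, days were compared with limma on log2(FPKM + 1) over all 14795 genes that passed the filter, and a gene was called at a Benjamini-Hochberg adjusted p under 0.05. At day 4, 9 of the 63 splicing genes rose relative to day 0 and none fell. Over all genes tested 5.34% were called in this comparison, 4.62% as higher and 0.716% as lower. The called genes were 5 Snrp genes (Snrpf, Snrpa1, Snrpe, Snrpb and Snrpd3), Lsm4, and Srsf2, Srsf3 and Srsf9. No Sf3 or Hnrnp gene passed. In 24 of the 63 genes all 4 day 4 libraries lay above all 4 of day 0, against 12.6% of all genes tested. The median log2 change was 1.14 for Snrp, 0.95 for Lsm, 0.55 for Sf3, 0.54 for Srsf and 0.36 for Hnrnp, against 0.16 over all genes, and 56 of the 63 changes were above 0. Scaling the libraries by the median of ratios moved the median of all genes to -0.17. The family medians then lay above it by 0.85 for Snrp, 0.68 for Lsm, 0.33 for Sf3, 0.26 for Srsf and 0.06 for Hnrnp, whose own median turned to -0.11, and 3 genes stayed called (Snrpf, Snrpa1 and Lsm4). With that scaling the calls over all genes came to 154 higher and 118 lower, against 684 higher and 106 lower as deposited.

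The family medians at day 4 against day 0 within code groups 1 and 2 were 1.18 and 0.95 for Snrp, 0.92 and 0.88 for Lsm, 0.59 and 0.55 for Sf3, 0.70 and 0.52 for Srsf and 0.43 and 0.36 for Hnrnp. Each of the 9 called genes was higher within both code groups, by 0.91 to 2.47 in group 1 and by 0.62 to 2.64 in group 2. In all 9 every day 4 library lay above every day 0 library, so this direction was bound to hold and adds no support. Snrpf, Lsm4, Srsf3, Snrpa1 and Srsf9 were called in all 16 fits that each left out 1 library. Snrpe was lost without day 4 replicate 2 (adjusted p = 0.0509, limma), and Srsf2 without day 0 replicate 3 or 4 or day 4 replicate 2 or 3 (adjusted p up to 0.0591). Snrpb was lost in 6 of these fits, each without a library of day 0 or day 4 (up to 0.0959), and Snrpd3 in 13 (up to 0.145).

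**Figure D2:**
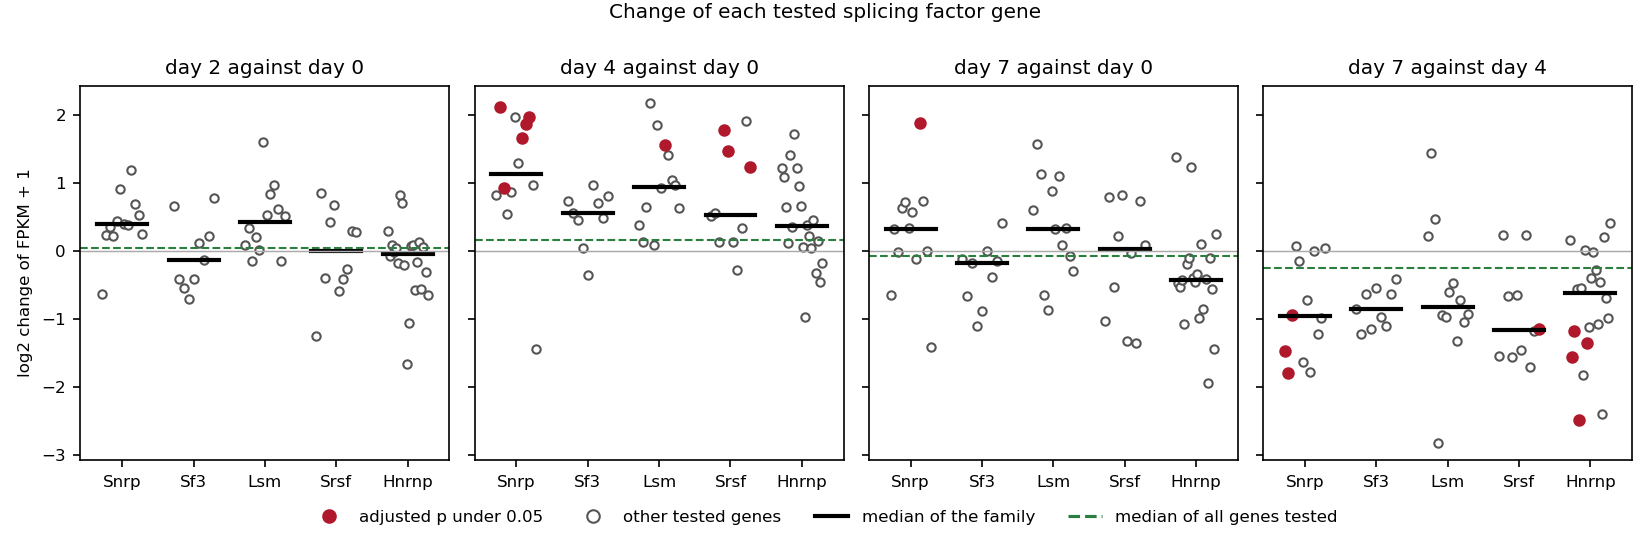
Log2 change of FPKM + 1 (vertical axis) of the 63 tested splicing genes by family in 4 comparisons, with called genes filled, the median of each family as a bar and the median of all 14795 genes as a dashed line. At day 4 against day 0 the 9 called genes lie between 0.93 and 2.12, and at day 7 against day 4 the 8 called genes lie between -2.49 and -0.93.

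All 7 genes of the Sm ring had day 4 libraries entirely above day 0, with log2 changes between 0.93 and 1.97, and 4 of them were called. Snrpf (ENSMUSG00000020018.6, chr10:93583029-93589706, minus strand) codes for the F protein of the ring. It had 34.2, 32.7, 65.7 and 36.7 FPKM at day 4, against 7.45, 9.53, 9.54 and 12.7 FPKM at day 0. The lowest day 4 library was thus well above the highest of day 0, and the log2 change was 1.97 ± 0.30 (SE; adjusted p = 0.0035, limma). Exons of Snrpf share 85.4% of their bases with other genes, mostly Ccdc38 on the other strand, and the library kit does not mark strand. Ccdc38 averaged 8.28 ± 3.46 FPKM at day 4 and 1.65 ± 0.414 FPKM at day 0 (SD, n = 4 each), and reads of the pair cannot be told apart. The pseudogene Gm13092, a near-identical copy of Snrpf, was at 78.1 ± 22.5 FPKM at day 4 and 19.1 ± 6.71 FPKM at day 0.

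Snrpe (chr1:133603871-133610291, minus strand), the E protein of the ring, had 106, 136, 88.6 and 72.3 FPKM at day 4, against 26.2, 20.2, 52.7 and 16.2 FPKM at day 0. No library overlapped, and the log2 change was 1.88 ± 0.38 (adjusted p = 0.0113, limma). It was the 1 splicing gene called at day 7 against day 0, where 0.406% of all genes were called, 0.27% as higher. Snrpe had 139, 104, 52.5 and 124 FPKM at day 7, and 3 of these 4 libraries were above all of day 0 (log2 change 1.88 ± 0.38, adjusted p = 0.0488, limma). Its pseudogene Snrpert averaged 27.9 ± 16.3 FPKM at day 0, then 89.3 ± 16.9 FPKM at day 4 and 105 ± 38.9 FPKM at day 7. The day 7 call was lost with no code group in the fit (adjusted p = 0.0567, limma) and in 14 of the 16 fits that each left out 1 library, with adjusted p up to 0.147.

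Snrpd3 (chr10:75517551-75537381, plus strand), the D3 protein, had 31.6, 45.2, 38.3 and 22.5 FPKM at day 4, against 5.83, 6.17, 14.7 and 17.2 FPKM at day 0. At day 0 the libraries fell into a lower and a higher pair, which are replicates 1 and 2 and replicates 3 and 4, and both pairs were below day 4. The log2 change was 1.66 ± 0.45 (adjusted p = 0.045, limma), at 2.47 within replicates 1 and 2 and 0.85 within replicates 3 and 4, and the call held in 3 of the 16 fits without 1 library. Snrpb (chr2:130171414-130179403, minus strand), which codes for the B and B′ proteins and had the highest level of the family, had 312, 313, 214 and 388 FPKM at day 4, against 134, 129, 204 and 173 FPKM at day 0. The lowest day 4 library lay just above the highest of day 0, and the log2 change was 0.93 ± 0.22 (adjusted p = 0.0262, limma).

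The other ring genes did not pass at day 4. Snrpd1 had 26.2 to 72.2 FPKM at day 4 and 8.36 to 17.9 FPKM at day 0 (log2 change 1.97 ± 0.61, adjusted p = 0.0752), Snrpd2 15.5 to 33.5 FPKM and 6.83 to 11.6 FPKM (1.29 ± 0.41, adjusted p = 0.0828) and Snrpg 43.5 to 55.3 FPKM and 19.2 to 38.0 FPKM (0.98 ± 0.35, adjusted p = 0.118, limma). Snrpn, the paralog of Snrpb used in neurons, made up 4.34 ± 6.07% of the summed FPKM of the pair at day 4 and 12.7 ± 7.97% at day 0. Its own levels ran from 0.453 to 33.0 FPKM at day 4 and from 6.57 to 38.3 FPKM at day 0 and overlapped widely.

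Among proteins particular to U1 and U2, Snrpa1 (chr7:66059003-66074587, plus strand) had the greatest called change at day 4. Its product binds the U2 RNA beside that of Snrpb2. Snrpa1 had 37.9, 56.1, 45.8 and 72.4 FPKM at day 4, against 10.5, 9.19, 12 and 13 FPKM at day 0. The day 0 libraries were close together and far below day 4 (log2 change 2.12 ± 0.42, adjusted p = 0.0106, limma), and the change was 2.12 within both code groups. At day 7 it had 13.0, 13.6, 8.37 and 26.6 FPKM, all below day 4 (log2 change -1.79 ± 0.42, adjusted p = 0.043). Snrpa (chr7:27187005-27196271, minus strand), the A protein of U1, had 13.3, 16.9, 14.6 and 25.3 FPKM at day 7, against 42.4, 41.8, 75.1 and 42.1 FPKM at day 4. It fell (log2 change -1.46 ± 0.34, adjusted p = 0.042, limma), while its change at day 4 against day 0 did not pass (0.82 ± 0.34, adjusted p = 0.174). Snrpb2, of U2, and Snrpc, of U1, had log2 changes of 0.55 and 0.87 at day 4 against day 0 and were not called.

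Of the 7 genes of the LSM2 to LSM8 ring, 7 had a positive change at day 4 against day 0, 3 with no overlap, and 1 was called. Lsm4 (chr8:70673248-70678752, plus strand) had 125, 165, 148 and 135 FPKM at day 4, against 71.8, 46.5, 43.2 and 35.1 FPKM at day 0. The highest day 0 library was well below the lowest of day 4 (log2 change 1.57 ± 0.27, adjusted p = 0.00571, limma), and the call held without any single library. At day 7 Lsm4 had 87.6, 84.8, 100 and 153 FPKM, again all above day 0 (1.10 ± 0.27, adjusted p = 0.119). Lsm2 and Lsm5 had changes of 1.86 ± 0.77 and 1.42 ± 0.50 at day 4 against day 0, without overlap and not called (adjusted p of 0.179 and 0.110). Outside the ring, Lsm12 had 13.8 to 26.6 FPKM at day 4 and 0 to 7.49 FPKM at day 0 (2.18 ± 0.88, adjusted p = 0.166). Lsm10, whose product with that of Lsm11 replaces 2 Sm proteins in the U7 particle that cuts histone pre-mRNA, had 29.9 to 86.8 FPKM at day 7 and 10.1 to 26.7 FPKM at day 0 (1.57 ± 0.59, adjusted p = 0.296). Its day 7 and day 0 libraries did not overlap, which held for 2.51% of all genes in that direction and for 4 splicing genes, Snrpf, Lsm4, Lsm10 and Lsm11. No Lsm gene other than Lsm4 passed in any of the 6 comparisons of days, and Lsm14b, below the filter, reached at most 0.643 FPKM.

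None of the 9 SF3A and SF3B genes was called in any of the 6 comparisons of days, although the family medians, 0.55 at day 4 against day 0 and -0.85 at day 7 against day 4, were within the range of the other families. Of the 9 changes 8 were above 0 at day 4 against day 0, between -0.35 (Sf3b2) and 0.98. Sf3b4, a subunit that contacts RNA near the branch point, had 39.1, 35.5, 39.2 and 30.6 FPKM at day 4, against 24.6, 17.1, 17.9 and 28.4 FPKM at day 0. These did not overlap, with a log2 change of 0.71 ± 0.31 that missed the threshold (adjusted p = 0.211, limma). At day 7 it had 15.1, 13.8, 29.8 and 11 FPKM, below every day 4 library (-1.10 ± 0.31, adjusted p = 0.0931). Sf3b6, which binds the branch point region and had the highest level of the family, was at 43.0 ± 7.38 FPKM at day 4 and 24.9 ± 8.57 FPKM at day 0. Sf3a3 ranged from 11.5 to 84.3 FPKM at day 4 and from 15.2 to 41.9 FPKM at day 0. Sf3b1, the scaffold of the complex, was at 24.2 ± 7.64 FPKM at day 4 and 23.0 ± 5.42 FPKM at day 0 (SD, n = 4 each).

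**Figure D3:**
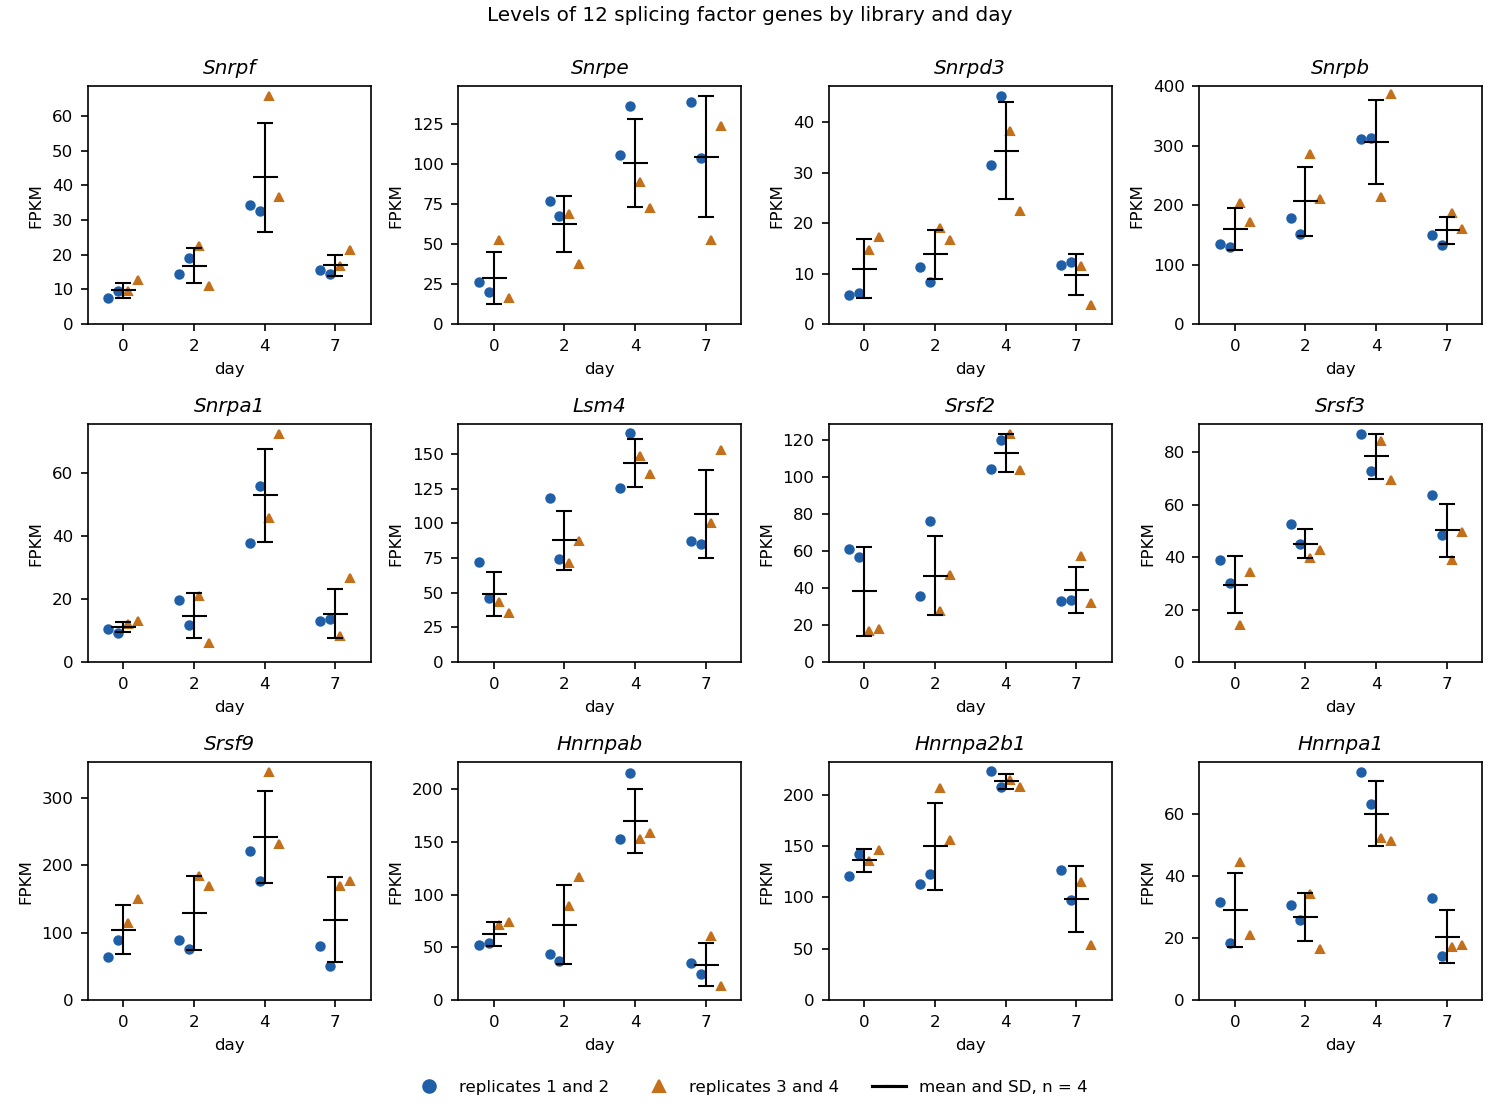
FPKM (vertical axes, each from 0) of 12 splicing genes in each of the 16 libraries by day (horizontal axes), with the mean and SD of 4 libraries; circles are replicates 1 and 2 and triangles replicates 3 and 4. Snrpf, Snrpa1 and Srsf2 are highest at day 4, and Snrpf at day 7 is still above day 0. Snrpe is as high at day 7 (52.5 to 139 FPKM) as at day 4 (72.3 to 136 FPKM), and Hnrnpab is lower at day 7 than on any earlier day by its mean.

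Among the SR proteins, 3 of 10 tested genes rose at day 4 and the other 7 did not pass. Srsf3 (chr17:29032628-29043373, plus strand), which also acts in mRNA export and 3 prime end processing, had 87.0, 72.8, 84.3 and 69.3 FPKM at day 4, against 39.1, 30.3, 14.1 and 34.4 FPKM at day 0. All 4 were far above day 0 (log2 change 1.47 ± 0.27, adjusted p = 0.00803, limma). Its day 2 libraries, at 52.7, 44.9, 39.7 and 42.9 FPKM, were also above day 0 without overlap, a pattern held by 3.37% of all genes and by no other splicing gene, and this change did not pass (0.68 ± 0.27, adjusted p = 0.411). Srsf2 (chr11:116849901-116853094, minus strand), the factor also called SC35, had 105, 120, 123 and 104 FPKM at day 4, against 61.2, 57.2, 16.8 and 17.9 FPKM at day 0. At day 0 replicates 1 and 2 were higher than replicates 3 and 4, and at day 4 all were close together. The log2 change was 1.78 ± 0.40 (adjusted p = 0.0193, limma), at 0.91 within replicates 1 and 2 and 2.64 within replicates 3 and 4. Exons of Srsf2 share 25.3% of their bases with other genes, mainly Mettl23, which was at 59.9 ± 5.98 FPKM at day 4 and 27.5 ± 17.4 FPKM at day 0.

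Srsf9 (chr5:115327177-115333080, plus strand) had the highest mean level of the SR genes. It had 222, 176, 339 and 232 FPKM at day 4, against 64.3, 89.6, 114 and 150 FPKM at day 0, with no overlap (log2 change 1.23 ± 0.25, adjusted p = 0.0109, limma). Replicates 3 and 4 were higher than replicates 1 and 2 on each of the 4 days, and with no code group in the fit Srsf9 was not called (adjusted p = 0.109 at day 4 against day 0 and 0.202 at day 7 against day 4, limma). At day 7 it had 81.1, 51.2, 170 and 176 FPKM, and it fell relative to day 4 (-1.15 ± 0.25, adjusted p = 0.0324), although the highest day 7 library lay only just below the lowest of day 4. Srsf7 was spread too widely to pass, at 129, 116, 140 and 67.1 FPKM at day 4 and 75.7, 65.3, 22.9 and 4.96 FPKM at day 0 (1.92 ± 0.64, adjusted p = 0.095). Srsf5 had the 1 negative change of the family at day 4 (-0.27 ± 0.45, adjusted p = 0.78). Srsf12, below the filter, was listed at 0 in 10 of 16 libraries and reached 3.68 FPKM in 1 library of day 0.

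Genes for hnRNPs were not called at day 4 against day 0, and 4 of 20 fell at day 7 relative to day 4. In all, 8 splicing genes fell between those days and none rose, against 1.63% of all genes called, 1.5% as lower and 0.128% as higher. Besides the 4 hnRNP genes these were Snrpa, Snrpa1, Snrpb and Srsf9. In 18 of the 63 genes all day 7 libraries lay below all day 4 libraries, against 8.66% of all genes tested. The family medians were -1.16 for Srsf, -0.96 for Snrp, -0.85 for Sf3, -0.82 for Lsm and -0.62 for Hnrnp, against -0.25 over all genes. With median-of-ratios scaling the median of all genes was 0.05, the family medians lay between -0.71 and -0.20, and 1 gene stayed called, Hnrnpab. The 8 genes were lower within both code groups, by log2 changes between -2.57 and -0.94 in group 1 and between -2.41 and -0.69 in group 2. In all 8 every day 7 library lay below every day 4 library, so this direction was bound to hold and adds no support. With no code group in the fit Srsf9 (adjusted p = 0.202), Snrpa (0.0803), Snrpb and Hnrnpf (0.0837 each) were no longer called. Leaving out single libraries ended the call of Srsf9 in 4 of 16 fits, Hnrnpf in 5, Hnrnpa1 and Hnrnpa2b1 in 7 each, Snrpa1 in 12, and Snrpa and Snrpb in 14 each, with adjusted p of up to 0.158 (limma).

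Hnrnpab (chr11:51600100-51606847, minus strand) codes for an RNA-binding protein that also binds CArG-box DNA. It had 35.2, 25.0, 60.7 and 13.1 FPKM at day 7, against 153, 215, 152 and 159 FPKM at day 4. Even the highest day 7 library was less than the lowest day 4 library by a wide margin (log2 change -2.49 ± 0.41, adjusted p = 0.00776, limma), and the call held in all 16 fits without 1 library. At day 0 it had 52.3, 54.5, 71.6 and 73.7 FPKM, so day 4 was above day 0 without overlap (1.42 ± 0.41, adjusted p = 0.057). Exons of Hnrnpab share 29.1% of their bases with Phykpl on the other strand, which was at 4.88 ± 2.50 FPKM at day 7 and 19.96 ± 3.46 FPKM at day 4.

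Hnrnpa2b1 (chr6:51460932-51469894, minus strand), an hnRNP core protein and the family's highest gene, had 127, 97.9, 115 and 53.6 FPKM at day 7, against 223, 207, 214 and 208 FPKM at day 4. The day 4 libraries were nearly equal and all above day 7 (log2 change -1.18 ± 0.26, adjusted p = 0.0378, limma). Hnrnpa1 (chr15:103240432-103246692, plus strand), which can repress splice sites, had 32.9, 14.2, 17.2 and 17.6 FPKM at day 7, against 73.6, 63.3, 52.4 and 51.2 FPKM at day 4 (-1.56 ± 0.35, adjusted p = 0.0367). Its 9 near-identical pseudogene copies held 55.4% as many reads as the gene, and the most abundant, Gm10052, was at 11.1 ± 4.46 FPKM at day 7 and 45.9 ± 6.64 FPKM at day 4. Hnrnpf (chr6:117900324-117925622, plus strand), which binds runs of G, had 61.1, 29.4, 101 and 62.3 FPKM at day 7, against 142, 146, 135 and 177 FPKM at day 4 (-1.34 ± 0.29, adjusted p = 0.0328, limma). Exons of Hnrnpf share 26.45% of their bases with other genes. Copies of Hnrnpf held more reads than the gene itself, 109% as many. In all 3 genes no library overlapped between the days.

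Other hnRNP genes did not pass, and their changes at day 4 against day 0 ran between -0.97 (Hnrnph3) and 1.72 (Hnrnpd). Hnrnpm had 17.8, 6.18, 13.6 and 0.140 FPKM at day 7, below all libraries of day 4 (21.3 to 51.4 FPKM) and of day 0 (18.7 to 33.6 FPKM). It was the 1 splicing gene with all day 7 libraries below day 0, which held for 2.5% of all genes (log2 change -1.93 ± 0.67, adjusted p = 0.26, limma). Hnrnpd had 19.8 to 31.2 FPKM at day 4 and 2.36 to 14.9 FPKM at day 0 (1.72 ± 0.48, adjusted p = 0.053). Hnrnpk was at 156 ± 23.4 FPKM at day 4 and 120 ± 14.4 FPKM at day 0. Hnrnph1 had 20.8 to 33.1 FPKM at day 4 and 0.555 to 10.6 FPKM at day 2 (2.33 ± 0.53, adjusted p = 0.071). At day 7 against day 0 the median of the Hnrnp family was -0.42, with 16 of 20 changes below 0, while those of Snrp and Lsm were both 0.33 and that of all genes -0.07.

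**Figure D4:**
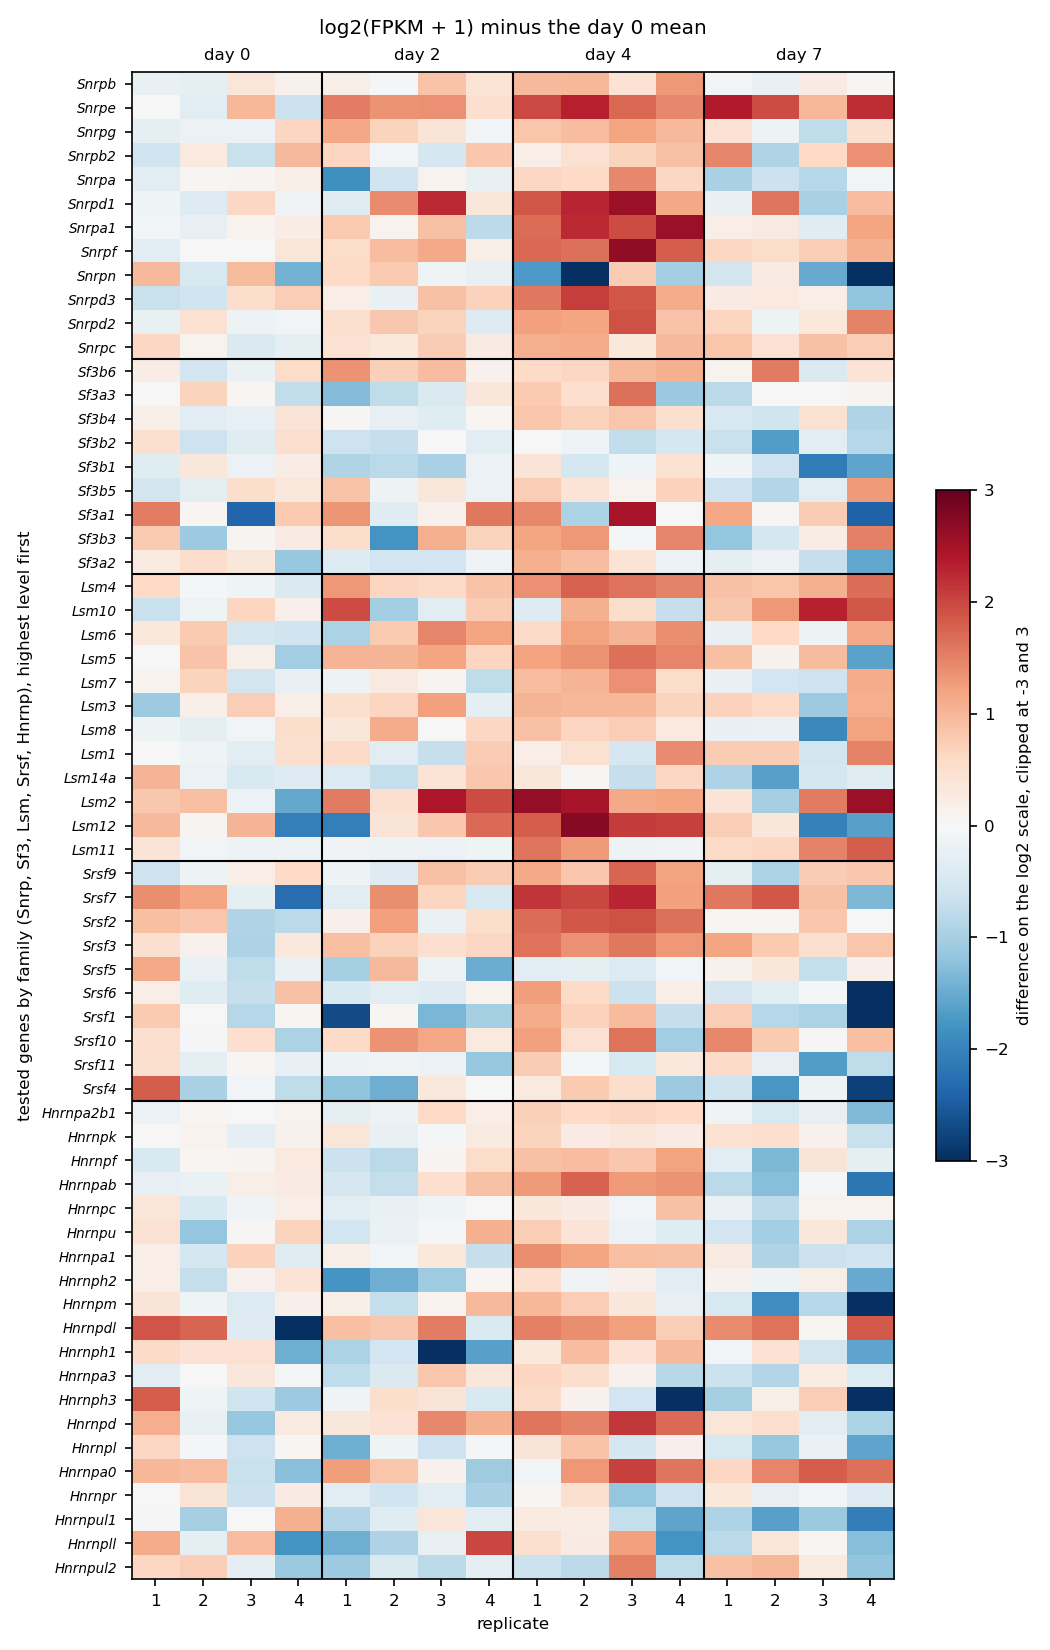
Log2(FPKM + 1) of the 63 tested splicing genes (rows, by family) in each library (columns) minus the gene's mean at day 0, with red above and blue below. Rows of Snrp and Lsm are mostly red at day 4, where 11 of 12 and 12 of 12 changes against day 0 are above 0, and Hnrnp rows are mixed.

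The test did not separate days 4 and 2 gene by gene. Between day 4 and day 2 no splicing gene was called by limma, against 0.453% of all genes, although 21 of the 63 had an unadjusted p under 0.05, against 11.4% of all genes, and 18 had day 4 libraries all above day 2, against 7.83% of all genes. The nearest was Snrpa1, with 37.9 to 72.4 FPKM at day 4 and 5.97 to 21.2 FPKM at day 2 (log2 change 1.88 ± 0.42, adjusted p = 0.0659). At day 2 against day 0 none was called, against 0.311% of all genes, and 6 of 63 had an unadjusted p under 0.05, against 9.73% of all genes. At day 7 against day 2 none was called, against 0.0946%, and 5 of 63 had an unadjusted p under 0.05, against 9.18%. These counts for day 2 against day 0 and day 7 against day 2 were near the shares of all genes. An F test over the 4 days called 7 splicing genes, Snrpf, Hnrnpab, Lsm4, Snrpa1, Snrpe, Srsf9 and Srsf3, against 2.89% of all genes.

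Genes of the splicing pathway outside these families were followed in lists. Over all genes tested, 4.62% were called higher at day 4 against day 0 and 1.5% lower at day 7 against day 4. In lists this small, 1 call beside these shares says little about a list. Of 28 other proteins of the U particles none was called at day 4 against day 0, with a median log2 change of 0.41. None of 7 genes for recognition of the 3 prime splice site (median 0.90), of 8 helicases (-0.12), of 12 Prp19 complex genes (0.44) or of 10 SR kinases and transporters (0.01) was called. Of 13 genes for the SMN complex and Sm assembly, which loads Sm rings onto RNA, 1 rose. This was Gemin6, at 44.3 ± 32.1 FPKM at day 4 and 3.89 ± 7.47 FPKM at day 0 (log2 change 4.04 ± 0.95, adjusted p = 0.0256, limma), and the median of the list was 0.74. Of 13 exon junction complex genes Eif4a3, its RNA-clamping helicase, rose to 132 ± 13.4 FPKM at day 4, against 58.2 ± 12.1 FPKM at day 0 (1.19 ± 0.30, adjusted p = 0.0319), and fell at day 7 relative to day 4 (-1.39 ± 0.30, adjusted p = 0.0314). Of 26 other regulators Ybx1, an RNA-binding protein of mRNA particles, was higher at 190 ± 17.2 FPKM at day 4 and 98.9 ± 16.6 FPKM at day 0 (0.95 ± 0.23, adjusted p = 0.0281). Of 10 neuronal regulators 4 were tested and none was called.

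Genes of other cells and of dividing cells moved over the same days. Over all genes tested, 0.311% were called at day 2 against day 0. At day 4 against day 0, 4.62% were called higher and 0.716% lower. At day 7, 0.27% were called higher than at day 0 and 1.5% lower than at day 4. Of 15 genes of dividing cells, 4 were higher at day 2, 9 at day 4 and 2 at day 7 against day 0, and 2 were lower at day 7 than at day 4. Their summed level was 35.3 to 57.5 FPKM at day 0, then 226 to 635 at day 2, 216 to 753 at day 4 and 68.8 to 197 FPKM at day 7. Of 10 bipolar cell markers 3 were lower at day 4 than at day 0 (median log2 change -1.98), with summed levels of 16.5 to 91.0 FPKM at day 4 and 95.2 to 496 FPKM at day 0. Of 12 Mueller glia markers 1, Glul, was lower (median -2.01, at -3.97 within code group 1 and -0.28 within code group 2), with summed levels of 590 to 6550 FPKM at day 4 and 2329 to 4282 FPKM at day 0. Of 10 rod markers 9 were below 0 at day 4 against day 0 (median -0.58), as were all 3 tested of 8 endothelial markers (-2.24, at -4.49 and 0.01 within code groups 1 and 2), and none of either list was called. At day 7 relative to day 4 the changes of all 10 bipolar, 12 Mueller, 10 rod (median 0.86) and 3 endothelial markers (0.98) were above 0. The 4 tested amacrine and horizontal cell markers were above 0 as well (median 0.40). In the same comparison all 7 cone markers (median -0.75) and all 4 tested retinal ganglion cell markers (-0.41) were below 0. Plac8, 1 of 2 monocyte markers tested, was higher at day 7 than at day 0 (10.3 ± 4.53 and 0.244 ± 0.325 FPKM, log2 change 3.14, adjusted p = 0.031, limma). The change of the other tested monocyte marker was below 0 in this comparison, and the median of the 2 was 0.98. Of 14 microglia markers 1 was called at day 4, Fcrls, which was higher (median 0.14). In a fit with the mean levels of the bipolar and Mueller lists as covariates, no gene of all 14795 was called at day 4 against day 0. Among the 9 splicing genes, log2 changes in that fit were larger for Snrpa1 (2.22, against 2.12 without these covariates), Lsm4 (1.76 against 1.57) and Srsf2 (3.06 against 1.78). They were smaller for Snrpf (1.79 against 1.97), Snrpe (1.41 against 1.88), Snrpb (0.86 against 0.93) and Srsf3 (1.31 against 1.47). Those of Snrpd3 and Srsf9 were smaller too, at 0.63 and 0.49, against 1.66 and 1.23. Both the bipolar and the Mueller list were lower at day 4 by their medians, so this fit cannot tell their part from that of day. The part of the rod, cone, amacrine and horizontal, ganglion, endothelial, monocyte and dividing cells in the splicing gene changes was not tested.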

How the data were processed

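The deposited table gives FPKM per gene, which the authors made from reads mapped with STAR 2.7.2b and counted with featureCounts 1.6.1 on the build GRCm38.p6. These names come from the submitters' processing notes, and reads that fit several genes were handled in a way not given in the sources used here. FPKM multiplied by gene length gave 8647276 to 15708302 reads per library, and 47.4% to 63.8% of the values above 0 came out as whole reads (tolerance 0.02), so a count test was not used. In a 1 kb gene each read added 0.0637 to 0.116 FPKM, so a listed 0 allows a level of 0.191 to 0.347 FPKM (3 reads). That limit covers counting error alone, as amplified reads repeat molecules. The 37 mitochondrial genes all stood at 0.

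Genes that reached 1 FPKM in 4 or more libraries (14795) entered 1 fit of limma 3.58.1 in R 4.3.3 (lmFit, eBayes with trend) on log2(FPKM + 1), a scale that understates changes of low genes, with all 16 libraries, a mean per day and the code group (first 4 of the 6 digits of the title code) as covariate. Tests were two-sided over 6 comparisons of days and an F test, adjusted over all genes tested. Near-identical copies were pseudogene transcripts of the GENCODE annotation matching at 95% identity or more over at least 200 bases (blastn 2.17.0): 22 genes had 73 copies. Named genes were those called, the 3 highest of each family, and up to 2 per direction, family and comparison with a mean of at least 5 FPKM whose groups did not overlap, with paralog pairs and genes below the filter. Members, lists and rules were chosen with earlier results of these data known. Alternatives were another pseudocount (0.1), no filter, median-of-ratios scaling, a replicate block, other covariates, each code group alone, and leaving out libraries. The fits were tested on simulated data.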

Additional observations from a re-analysis of the deposited data

Results flagged for a closer look

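With 4 libraries a day, a library was singled out where its gap to the nearest other, divided by the range of the day, was above Dixon's 95% critical value for groups of 4. This held in 15 of 148 groups of the 37 named genes. The 5% rate behind that value holds for independent normal values. These groups share the same libraries and include Srsf12, which was mostly at 0, so no excess over 5% can be read from the count. Among genes called above, Snrpf had 65.7 FPKM in day 4 replicate 3, against 36.7 FPKM in the nearest library, and Hnrnpab had 215 FPKM in day 4 replicate 2, against 159 FPKM. Snrpa had 75.1 FPKM in day 4 replicate 3 (nearest 42.4 FPKM), Snrpd3 had 3.77 FPKM in day 7 replicate 4 (nearest 11.5 FPKM) and Srsf2 had 57.6 FPKM in day 7 replicate 3 (nearest 33.7 FPKM). Among genes not called, Snrpg had 38.0 FPKM and Hnrnph1 had 5.29 FPKM in day 0 replicate 4, and Lsm14a had 22.4 FPKM in day 0 replicate 1. Hnrnpll had 12.9 FPKM in day 2 replicate 4, Hnrnpk had 191 FPKM in day 4 replicate 1, Lsm7 had 30.3 FPKM in day 7 replicate 4 and Sf3a3 had 14.5 FPKM in day 7 replicate 1. Srsf12, which is below the filter, had 3.68, 0.22 and 3.15 FPKM in replicate 1 of days 0, 2 and 4, and at most 0.0625 FPKM in the other libraries of these days. No splicing gene had a called difference of a day's change between the code groups (lowest adjusted p 0.125, limma).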

How the results depend on the processing

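The processing changed how many splicing genes were called. Across 26 alternatives none of the 45 changes of named genes turned its direction, and the 18 called changes lost their call 209 times in single alternatives. Most of the 45 were named for being called or for groups without overlap, and leaving out libraries can hardly turn such a change. Their kept direction is thus no added support. Family medians were not chosen in this way, and the Hnrnp median at day 4 against day 0 turned from 0.36 to -0.11 with median-of-ratios scaling. At day 4 against day 0 the 9 calls became 3 with median-of-ratios scaling, 4 in code group 1 alone, and 0 in code group 2 alone and with bipolar and Mueller marker levels as covariates. At day 7 against day 4 the 8 calls became 4 with no covariate, 2 with the replicate block, 1 with no filter on low values, with median-of-ratios scaling and with all 6 digits of the title code, and 0 in each code group alone and with the bipolar and Mueller covariates. The call at day 7 against day 0 was kept with median-of-ratios scaling and became 0 in each other alternative that kept all libraries of the fit or left out the 2 with prefix F or a code group. At day 2 against day 0 1 gene was called with all 6 digits of the code. The F test called 7 splicing genes, 3 with all 6 digits, 2 with the block, and 0 with no filter, with median-of-ratios scaling, in each code group alone and with the bipolar and Mueller covariates. In code group 2 alone and with those covariates no gene of all 14795 was called at day 4 against day 0, while the fit with covariates called 13 genes at day 7 against day 0 and 18 at day 4 against day 2. The cause of the lost calls was not tested.

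Leaving out each library in turn gave 5 (without day 4 replicate 2) to 12 (without day 7 replicate 4) calls at day 4 against day 0, and 1 (without day 4 replicate 1 or 2 or day 7 replicate 2) to 7 at day 7 against day 4. There, omitting day 4 replicate 4 left 2 calls, omitting day 4 replicate 3 or day 7 replicate 4 left 3, omitting day 0 replicate 2 left 4, and omitting day 0 replicate 3 or 4, day 2 replicate 2 or day 7 replicate 1 left 5. The call at day 7 against day 0 was kept when the third library of day 0 or of day 7 was left out, and lost for each of the other 14. The range was 0 to 1 for day 2 or day 7 against day 0, the same for day 4 against day 2, and 1 to 9 for the F test, where omitting day 4 replicate 1 or 2 left 1, omitting day 4 replicate 3 or day 0 replicate 2 left 3, and omitting day 4 replicate 4 or day 7 replicate 2 left 4.

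Of 300 family medians under the alternatives that did not leave out single libraries, 24 moved by more than the spread of the libraries. With median-of-ratios scaling they were 0.69 (Snrp), 0.16 (Sf3), 0.51 (Lsm) and -0.11 (Hnrnp) at day 4 against day 0, 0.50 (Snrp) at day 4 against day 2, and -0.51 (Snrp), -0.44 (Sf3), -0.39 (Lsm) and -0.20 (Hnrnp) at day 7 against day 4. With all 6 digits they were 1.08 (Srsf, day 4 against day 0), 0.050 (Hnrnp, day 7 against day 0), 0.42 (Sf3, day 4 against day 2), and -1.30 (Snrp) and -0.22 (Lsm) at day 7 against day 4. In code group 1 alone they were -0.47 (Sf3) and -0.43 (Hnrnp) at day 2 against day 0, -0.47 (Sf3, day 7 against day 0) and 1.05 (Hnrnp, day 4 against day 2), and in code group 2 alone 0.39 (Sf3, day 4 against day 2) and -1.28 (Snrp, day 7 against day 4). Without the 2 libraries with prefix F the Hnrnp median was -0.59 at day 2 against day 0, 1.01 at day 4 against day 2 and 0.14 at day 7 against day 2, while with the bipolar and Mueller covariates the Sf3 median was -0.45 at day 2 against day 0. Without single libraries the medians ran from 0.19 to 0.61 (Snrp, day 7 against day 0), -0.51 to -0.18 (Sf3, day 7 against day 0), 0.30 to 0.90 (Sf3, day 4 against day 2), -0.92 to -0.48 (Lsm, day 7 against day 4) and -0.47 to 0.092 (Lsm, day 7 against day 2), their outer values mostly without day 7 replicate 3.

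The replicate numbers recur on every day, but same-numbered libraries did not clearly deviate together (5 of 24 pairs with a correlation over 0.1, and 5 of 16 libraries closest to their own number). No pairing by number was seen, and with 4 libraries a day this check cannot exclude one. With the number as a replicate block, 7 genes were called at day 4 against day 0 and 2 at day 7 against day 4.

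The FPKM table holds no whole counts, so no count test was run, and changes of genes near the filter depend on the pseudocount. Pseudogene copies held over 20% as many reads as the gene itself for 11 of the 65 genes, so their levels depend on how shared reads were assigned.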
